A study of Rattus norvegicus with 3 samples.

Results

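The genes followed here make, conjugate, take up or export bile acids in rat liver: Akr1d1, Baat, Slco1b2, Slco1a1, Abcb11, Abcb4 and Abcc2. They were found on spotted arrays by gene symbol, former symbol or description, and all 7 were present among 5660 genes with a ratio on at least 1 array. The array names Slco1b2 by its former symbol Slc21a10, Slco1a1 by Slc21a1 and Abcb4 by Pgy3. Each of the 7 had 1 probe, printed on 2 spots.

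Hepatocytes turn cholesterol into bile acids through a chain of ring and side-chain reactions, join the products to taurine or glycine, and pump them across the canalicular membrane into bile. Transporters on the opposite, sinusoidal membrane take bile acids and other organic anions back up from portal blood. Bile salts in the canaliculus draw phospholipid and cholesterol with them, so synthesis, uptake and export act as 1 circuit between liver and gut.

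The groups were livers of male rats: the spontaneously hypertensive rat (SHR) of 1 month against Wistar Kyoto rats (WKY) of 1 month, SHR of 3 months against WKY of 3 months, and SHR of 3 months against SHR of 1 month. The SHR is an inbred strain that becomes hypertensive as it grows, and the WKY is the normotensive strain usually set beside it. Tissue of the WKY rats was pooled, and how many animals gave each RNA is unstated. The labels name no drug treatment, so strain and age were the stated differences between the groups.

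Each comparison rested on 1 array with 2 colours, without a second array and without a dye swap. No test was therefore possible, and every difference below is a measured value whose only error is the SD over the 2 printed spots on 1 array. This spot SD, pooled over probes, was 0.056 at 1 month, 0.046 at 3 months and 0.052 on the SHR age array, in log2 units, and it holds nothing of the spread between animals. A log2 ratio divides the numerator channel (SHR, or SHR of 3 months) by the denominator channel (WKY, or SHR of 1 month). Median raw intensity over spots was 1840 for SHR and 2779 for WKY at 1 month, 1753 for SHR and 2862 for WKY at 3 months, and 1182 for SHR of 3 months and 1995 for SHR of 1 month. The same scanner column was the numerator on all 3 arrays, so a dye effect of a gene and its strain or age difference cannot be told apart. The arrays also share SHR RNA as the labels name it, so their values are given side by side and not as independent of each other. The sign of the SHR age array rests on the column headers, which name the numerator SHR of 3 months. The labels' dyes point the other way, and every sign on that array would turn with them. In whole tissue, fewer cells of a type and less RNA per cell cannot be told apart.

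The 5 genes with a promoter in the RefSeq table for the GRCr8 build were Slco1b2, Slco1a1, Abcb4, Abcc2 and Baat. The 250 bases before the start are shown for the pair with the lowest and the highest mean of the 3 log2 ratios among those 5, Slco1b2 (mean -0.449) and Abcc2 (mean 0.146), so that an uptake gene and an export gene with ratios on opposite sides of 0 can be read together. The means take the SHR age array as its headers have it, and with that sign turned the means and the pair could differ. Each sequence runs from 5′ to 3′, and capitals mark 3 short motifs on either strand. GTTAAT, read as ATTAAC on the other strand, is part of the site of the liver factor HNF1. AGGTCA, read as TGACCT on the other strand, is the core element that many nuclear receptors bind. CCAAT, read as ATTGG on the other strand, is a common promoter element.
Slco1b2, chr4:176282334-176282583, + strand: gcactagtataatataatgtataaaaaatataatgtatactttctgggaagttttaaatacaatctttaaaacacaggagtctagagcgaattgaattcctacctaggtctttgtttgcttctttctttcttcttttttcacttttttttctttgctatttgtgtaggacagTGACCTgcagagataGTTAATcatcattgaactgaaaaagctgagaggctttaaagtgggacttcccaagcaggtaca
Abcc2, chr1:252613625-252613874, + strand: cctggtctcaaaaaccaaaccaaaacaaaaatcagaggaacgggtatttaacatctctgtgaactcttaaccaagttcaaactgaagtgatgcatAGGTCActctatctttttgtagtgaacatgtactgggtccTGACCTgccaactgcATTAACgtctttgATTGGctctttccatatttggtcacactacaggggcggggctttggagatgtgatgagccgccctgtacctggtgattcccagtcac
GTTAAT stood 63 to 58 bases before the start of Slco1b2 and ATTAAC 100 to 95 bases before that of Abcc2, and 6.45% of 33469 promoters of this length hold it on either strand. AGGTCA on either strand occurred in 14.1% of promoters, with 1 match in Slco1b2 (78 to 73 bases before the start) and 2 in Abcc2 (155 to 150 and 115 to 110 bases before). CCAAT occurred in 34.0% of promoters, 1 time in Abcc2 (87 to 83 bases before the start) and 2 times in Slco1a1. None of the 3 motifs was found in this window of Abcb4 or Baat. The start used for Abcb4 lies inside its annotated gene (chr4:26106895-26164440, - strand), and so does its window (26164146-26164395). The bases upstream of the outer end of Abcb4 were not searched. These matches describe letters and no bound factor was measured.

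Akr1d1 and Slco1b2 were the lowest of the 7 in SHR liver relative to WKY liver at 1 month. The canalicular pumps Abcb11 and Abcc2 had ratios slightly above 0 at both ages. That of Abcc2 at 1 month was only about the size of the pooled spot SD (0.056). At 1 month the log2 ratio of SHR over WKY was -0.62 for Slco1b2 and -0.52 for Akr1d1, against 0.14 for Abcb11 and 0.06 for Abcc2. Baat, Abcb4 and Slco1a1 lay between, at -0.20, -0.14 and -0.10. Slco1b2 was 1.54-fold lower in SHR and was the only 1 of the 7 past 1.5-fold lower (a log2 difference of 0.585), as were 2.42% of 5654 genes. None of the 7 was past 1.5-fold higher at 1 month, where 0.195% of all genes were, nor at 3 months (0.605%). On the SHR age array none was past 1.5-fold higher as the headers have it (2.09% of all genes), while with the sign turned Akr1d1 would be (5.39%). None was 2-fold apart in either direction on any array, where 0.389% of all genes were at 1 month, 0.107% at 3 months and 0.99% on the SHR age array. At 1 month the 7 had a median of -0.14, beside -0.011 over all genes, and 5 of the 7 were below 0, as were 2968 of 5654 genes. The median was -0.14 at 3 months, beside -0.014 over all genes, and -0.30 on the SHR age array, beside -0.0076. On each of these arrays 4 of the 7 were below 0, beside 2978 of 5621 genes at 3 months and 2896 of 5656 on the SHR age array.

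**Figure D1:**
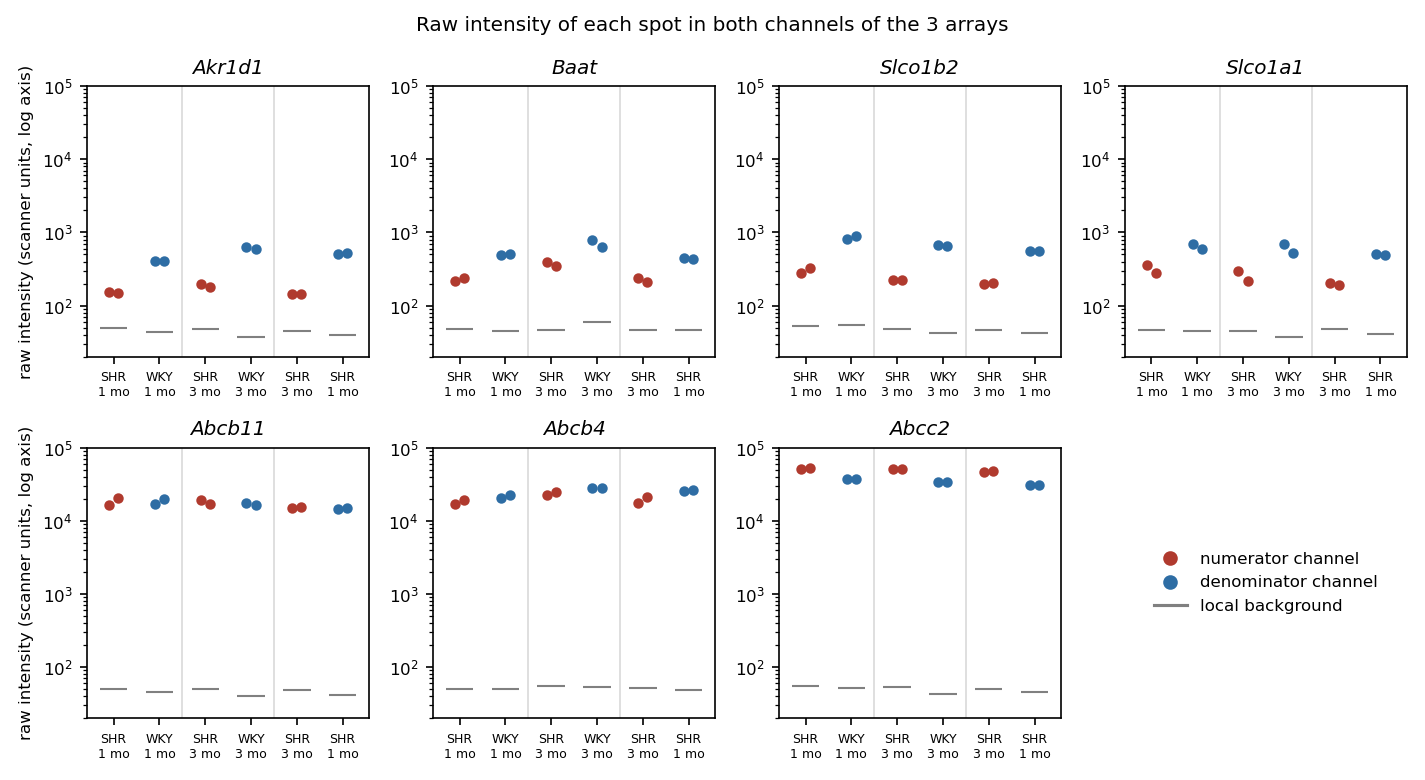
Raw intensity in scanner units on a log axis for each of the 7 genes, with both spots as dots in the numerator channel (red) and the denominator channel (blue) and the local background as a grey line, for SHR and WKY of 1 month, SHR and WKY of 3 months, and SHR of 3 months and 1 month. Akr1d1, Baat, Slco1b2 and Slco1a1 lie between 144 and 901 in every channel, while Abcb11, Abcb4 and Abcc2 lie between 14664 and 53179.

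Among the enzymes, Akr1d1 makes the 5-beta reduction of the sterol ring that gives bile acids their bent shape. Its spots read 154 and 150 in SHR and 411 and 407 in WKY at 1 month, in raw scanner units. At 3 months they read 197 and 180 in SHR and 623 and 591 in WKY. On the SHR age array they read 146 and 144 in SHR of 3 months and 505 and 523 in SHR of 1 month. The numerator channel was lower at both spots of all 3 arrays, with no overlap between channels. Because the numerator channel was dimmer at the median spot as well, only the normalized ratio compares the groups. The normalized log2 ratios were -0.51 and -0.54 at the spots of the 1-month array (SD 0.025) and -0.72 and -0.78 on the SHR age array (SD 0.037), where Akr1d1 was 1.68-fold lower in SHR of 3 months. There it ranked 156 from the lowest of 5656 genes and was the only 1 of the 7 at least 1.5-fold lower, where 5.39% of all genes were. With the sign that the labels' dyes give, its log2 ratio would be 0.751 in SHR of 3 months, 1.68-fold higher, with the same rank counted from the highest and the same share.

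The Akr1d1 probe was dim, at 3.05 times its local background in SHR and 9.34 times in WKY at 1 month, and dim genes on that array leaned to negative ratios. The 417 other genes within 0.5 log2 units of its mean intensity had a median log2 ratio of -0.167, and 14.9% of them were lower than Akr1d1. On the SHR age array the corresponding median over 612 genes was -0.044, and 1.8% of them were lower. The part of dimness in the 1-month value of Akr1d1 was not tested further.

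At 3 months the log2 ratio of Akr1d1 was -0.32, and this value depended on how the background was modelled. That array carried 985 spots with a bright local background, against 46 on the 1-month array and 0 on the SHR age array. With them in the fit, the background model added a median of 440 intensity units to SHR and 357 to WKY at dim spots, against 49.1 to 54.3 on the other arrays, which draws the ratios of dim genes toward 0. Fitted without the spots of bright background, it added 67.0 in SHR and 56.9 in WKY, and Akr1d1 had -0.677, which is 1.6-fold lower in SHR and ranked 132 from the lowest of 5240 genes. It was then the only 1 of the 7 past 1.5-fold lower at 3 months, where 3.78% of all genes were, and 0 were higher, where 0.84% were. In the fit with all spots 0 of the 7 were past 1.5-fold lower, where 1.49% of all genes were. In the authors' deposited table the log2 values of Akr1d1 were -0.594 at 1 month, -0.943 at 3 months and -1.03 on the SHR age array.

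Baat joins bile acids to taurine or glycine in the last step before export. Its spots read 217 and 236 in SHR and 494 and 514 in WKY at 1 month, 394 and 349 in SHR and 777 and 634 in WKY at 3 months, and 235 and 208 in SHR of 3 months and 451 and 430 in SHR of 1 month. The log2 ratio was -0.20 (SD 0.038) at 1 month, 0.01 (SD 0.048) at 3 months and 0.06 (SD 0.066) on the SHR age array. The 3-month and age values were within the SD between spots, and at 3 months the spots lay on both sides of 0. Without the spots of bright background the 3-month value was 0.0404.

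**Figure D2:**
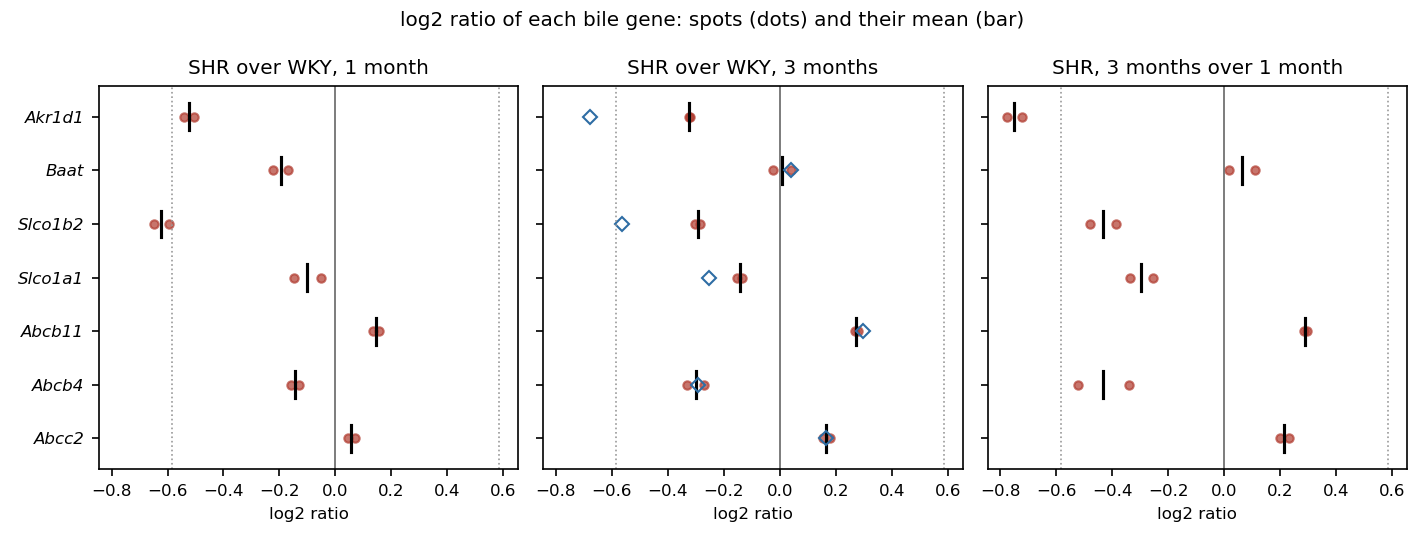
log2 ratio of each gene on the 3 arrays, with both spots as dots, their mean as a bar and the 1.5-fold limits dotted. Open diamonds on the 3-month array give the mean when the background model is fitted without spots of bright background, where Akr1d1 moves to -0.677 and Slco1b2 to -0.565.

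Among the uptake carriers, Slco1b2 (the rat counterpart of human OATP1B1 and OATP1B3) brings unconjugated bile acids, bilirubin and many drugs into hepatocytes. Its spots read 277 and 325 in SHR and 816 and 901 in WKY at 1 month, 227 and 227 in SHR and 675 and 659 in WKY at 3 months, and 195 and 207 in SHR of 3 months and 559 and 553 in SHR of 1 month. The log2 ratio was -0.62 (SD 0.038) at 1 month, the rank 115 from the lowest of 5654 genes. Of 632 other genes of like intensity at 1 month, 0.949% were lower, and their median was -0.003. The log2 ratio was -0.29 (SD 0.011) at 3 months, or -0.565 without the spots of bright background, and -0.43 (SD 0.066) on the SHR age array. Slco1b2 was thus low on all 3 arrays, and past 1.5-fold on the 1-month array only.

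Slco1a1 is an organic anion carrier of the same family and the same membrane, with more expression in male than in female rodent liver. Its spots read 361 and 282 in SHR and 697 and 600 in WKY at 1 month, 299 and 218 in SHR and 687 and 522 in WKY at 3 months, and 206 and 192 in SHR of 3 months and 502 and 498 in SHR of 1 month. The log2 ratios were small: -0.10 (SD 0.068) at 1 month, -0.14 (SD 0.011) at 3 months and -0.30 (SD 0.057) on the SHR age array. At 3 months it was -0.252 without the spots of bright background. Both spots were below 0 on each array, and 32.88%, 26.22% and 19.11% of all genes had lower ratios.

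Among the canalicular exporters, Abcb11, the bile salt export pump, had spots of 16650 and 20538 in SHR and 17023 and 19620 in WKY at 1 month. It read 19085 and 17008 in SHR and 17657 and 16338 in WKY at 3 months, and 14930 and 15609 in SHR of 3 months and 14664 and 15040 in SHR of 1 month. The raw spots of the channels overlapped on all 3 arrays, and the ratio within each spot was steadier than the intensities. The log2 ratio was 0.14 (SD 0.017) at 1 month, 0.27 (SD 0.006) at 3 months and 0.29 (SD 0.009) on the SHR age array, the highest of the 7 on each. If the labels' dyes are followed on the last of these, it would be the lowest of the 7 there. These are 1.11-fold, 1.21-fold and 1.22-fold, and 81.18%, 92.71% and 86.26% of all genes had lower ratios. The place of Abcb11 at the end of the order depended on the normalization, with either sign of the SHR age array. With median centring, loess within subgrids, a loess span of 0.5 and the authors' values, Abcc2 lay beyond Abcb11 on each array. Within subgrids Abcc2 had 0.227, 0.292 and 0.418, and Abcb11 0.0611, 0.188 and 0.109.

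Abcb4, the flippase that moves phosphatidylcholine into bile, was lower where Abcb11 was higher. Its spots read 17080 and 19308 in SHR and 20716 and 22255 in WKY at 1 month. They read 22516 and 24487 in SHR and 27830 and 28284 in WKY at 3 months, and 17227 and 21063 in SHR of 3 months and 25646 and 26184 in SHR of 1 month. The spots did not overlap between channels on any array. The log2 ratio was -0.14 (SD 0.020) at 1 month, -0.30 (SD 0.043) at 3 months and -0.43 on the SHR age array, where the spots differed most of the 7 genes (-0.52 and -0.34, SD 0.13). With each array centred on its median and no loess, which keeps the rise of ratio with intensity, Abcb4 turned to 0.266, 0.115 and 0.211.

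Abcc2, the pump for conjugated bilirubin, glutathione conjugates and sulfated or glucuronidated bile acids, was the brightest of the 7 probes. Its spots read 50873 and 53179 in SHR and 36894 and 37375 in WKY at 1 month. They read 50822 and 51601 in SHR and 34275 and 34084 in WKY at 3 months, and 45792 and 47028 in SHR of 3 months and 31100 and 31057 in SHR of 1 month. The log2 ratio was 0.06 (SD 0.017) at 1 month, 0.17 (SD 0.018) at 3 months and 0.21 (SD 0.022) on the SHR age array. The probe lay near the bright end, where 97.92% to 98.51% of genes were dimmer, and loess took most of the raw difference away there. With median centring alone the values were 0.994, 0.945 and 1.23, so the sign of Abcc2 held and its size depended on the normalization. At 1 month the SD over pixels of its WKY spots was 0.946% and 1.89% of their intensity. The brightest spot of that channel read 45619. Whether the WKY signal of Abcc2 was near the ceiling of its channel was not tested. Among 489 and 458 other genes of like intensity on the 1-month and SHR age arrays, 43.4% and 24.7% had higher ratios.

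**Figure D3:**
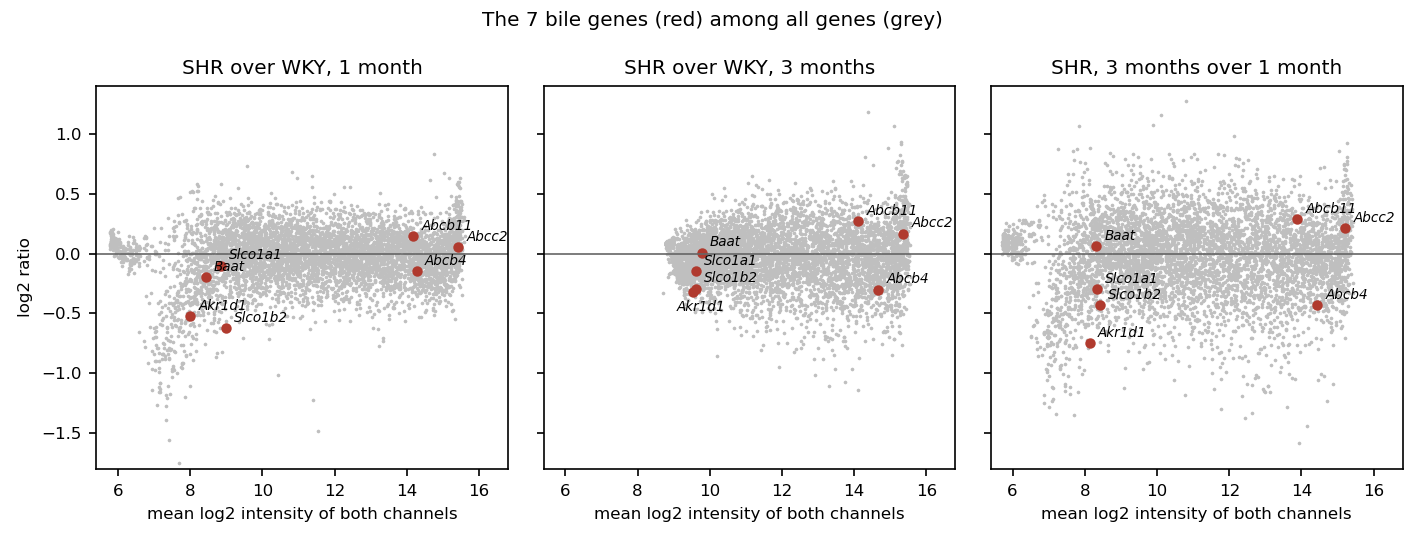
log2 ratio against the mean log2 intensity of both channels for all genes (grey) and the 7 bile genes (red, named) on the 3 arrays. The enzymes and uptake carriers sit at the dim end and the exporters at the bright end, and on the 3-month array the dim end starts higher on the intensity axis than on the other arrays.

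In the order of log2 ratios, the lowest of the 7 was Slco1b2 at 1 month and, as the headers have it, Akr1d1 on the SHR age array. The spots of Slco1b2 and Akr1d1 did not overlap at 1 month. Those of Abcb4 and Slco1a1 did, and Baat lay just below both. At 3 months Akr1d1, Abcb4 and Slco1b2 had -0.32, -0.30 and -0.29, with spots of Abcb4 that overlapped those of both others, and Akr1d1 was the lowest once spots of bright background were left out of the fit. Over the 3 log2 ratios together, Abcb11 and Abcc2 were the nearest pair (Euclidean distance 0.158), Slco1a1 and Abcb4 the next (0.212), and Akr1d1 and Abcb11 the farthest (1.37). As the headers have it, Akr1d1, Slco1b2, Slco1a1 and Abcb4 were below 0 on all 3 arrays, and Abcb11 and Abcc2 were above 0 on all 3. With the labels' dyes each of these genes would change side on the SHR age array. With median centring Abcb4 was above 0 on all 3 arrays (0.266, 0.115 and 0.211).

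The authors' deposited table gave Slco1b2 -0.579 at 1 month, -0.583 at 3 months and -0.555 on the SHR age array, and Slco1a1 -0.117, -0.194 and -0.412. In the authors' deposited table Baat had -0.254, 0.222 and 0.117, so its 3-month value was further from 0 than here. Among the exporters, the authors' deposited table had Abcb11 at 0.067, 0.194 and 0.129, Abcb4 at -0.0112, -0.171 and -0.171, and Abcc2 at 0.254, 0.313 and 0.427. The authors' deposited table thus put Abcb4 and Abcb11 closer to 0 and Abcc2 further from 0 than the values above on each array, with the same signs.

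To see how the strain difference changed with age, the log2 ratio of SHR over WKY at 1 month was subtracted from that at 3 months. A dye effect of a gene cancels here only if it was equal on both arrays, which was not tested. The change was 0.33 for Slco1b2, 0.20 for Akr1d1, 0.20 for Baat, 0.13 for Abcb11, 0.11 for Abcc2, -0.04 for Slco1a1 and -0.16 for Abcb4. None reached 1.5-fold, where 1.71% of 5616 genes were higher and 1.12% lower. Without the spots of bright background the change was 0.0569 for Slco1b2, -0.154 for Akr1d1 and -0.152 for Slco1a1, so the sign for Akr1d1 turned. Background shares of genes past 1.5-fold were then 0.383% higher and 1.65% lower. The changes of Baat (0.235), Abcb11 (0.152), Abcc2 (0.106) and Abcb4 (-0.149) differed little between both fits. In that fit 3 of the 7 genes, Akr1d1, Slco1a1 and Abcb4, had a lower strain ratio at 3 months, as did 2389 of 5220 genes.

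**Figure D4:**
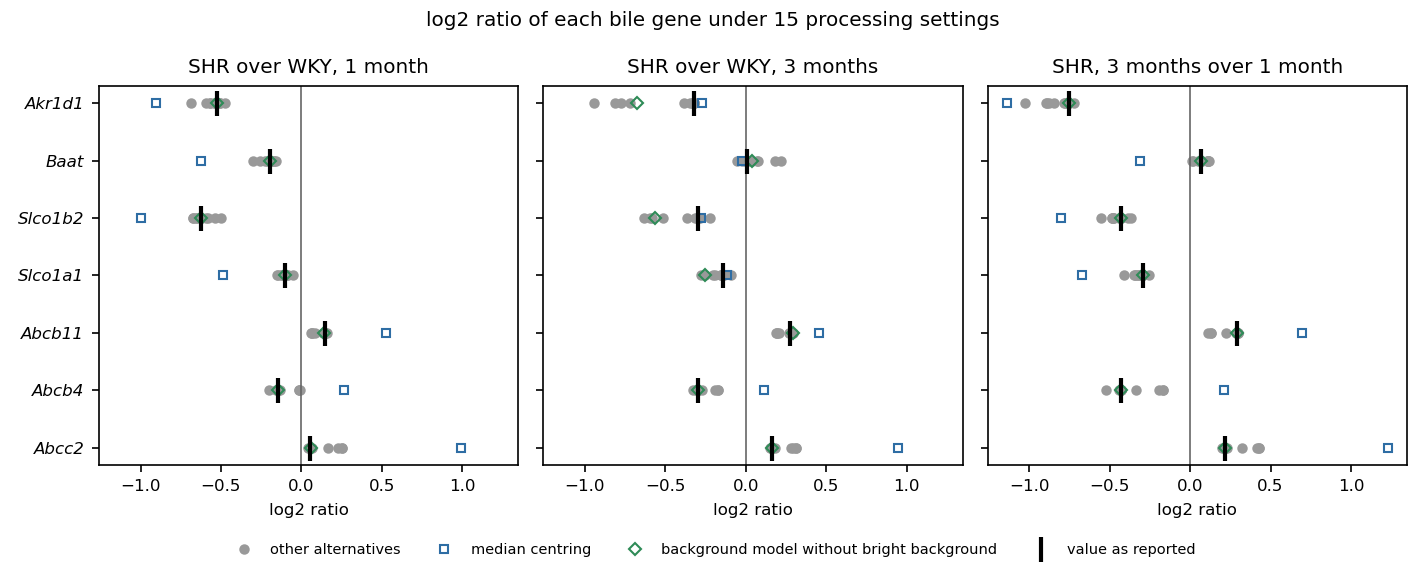
log2 ratio of each gene on the 3 arrays under 15 settings, with the value as reported as a black bar, median centring as a blue square, the background model without bright background as a green diamond and the other alternatives in grey. Akr1d1 and Slco1b2 stay below 0 and Abcb11 and Abcc2 above 0 in every setting, while Abcb4 crosses 0 with median centring. Both changes of filter and the mean over probes repeat the value as reported. The turned sign of the SHR age array is not among the settings shown.

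Around Akr1d1 and Baat, 14 of 20 listed genes of bile acid synthesis and conjugation were measured. Their median log2 ratio was -0.073 at 1 month, -0.013 at 3 months and 0.022 on the SHR age array, with 4, 6 and 8 genes above 0. Among all genes 2686 of 5654, 2643 of 5621 and 2760 of 5656 were above 0. The 3-month median of the list was 0.003 over 13 genes without the spots of bright background. In the fit with all spots none of the 14 was past 1.5-fold between the strains. In that fit 0.195% of all genes were higher and 2.42% lower at 1 month, and 0.605% and 1.49% at 3 months. Without the spots of bright background Akr1d1 was the only 1 of the 13 genes still measured past 1.5-fold at 3 months, where 3.78% of all genes were lower. On the SHR age array Akr1d1 was the only 1 of the 14 past 1.5-fold, lower as the headers have it. There 5.39% of all genes were past 1.5-fold lower and 2.09% higher. Cyp7a1, the rate-limiting enzyme of the classic pathway, had -0.12, 0.05 and 0.01, each below 1.5-fold, and 0.109 at 3 months without the spots of bright background. Acox2, which shortens the side chain in peroxisomes, had 0.38 at 1 month and 0.33 at 3 months in SHR, and 0.03 on the SHR age array. Amacr, the racemase ahead of that step, had -0.13 and -0.32 in SHR, with an SD between spots of 0.178 at 1 month. Slc27a5, the ligase that activates bile acids before Baat, had 0.06 at 1 month, 0.27 at 3 months and 0.39 on the SHR age array. The peroxisomal thioesterase Acot8 had 0.36, Hsd3b7, an early enzyme of the ring, 0.37, and the peroxisomal transporter Abcd3 0.35 on the SHR age array.

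Of the list of sinusoidal uptake, 10 of 11 genes were measured, with medians of -0.149, -0.132 and -0.281 and 7 of 10 below 0 on each array. Among all genes 2968 of 5654, 2978 of 5621 and 2896 of 5656 were below 0. The 3-month median of the list was -0.231 over 9 genes without the spots of bright background. The organic anion transporter Slc22a7 was past 1.5-fold on the SHR age array (0.78, higher as the headers have it, where 2.09% of all genes were). It had 0.50 in SHR over WKY at 3 months. Slc10a1, the sodium-dependent carrier of conjugated bile acids, had -0.12, -0.22 and -0.38. Among the family of Slco1b2 and Slco1a1, Slco1a4 had -0.30 and Slco2b1 -0.32 at 1 month, while Slco1a5 had 0.31 at 3 months (0.492 without the spots of bright background) and 0.54 on the SHR age array. Slco2a1, a prostaglandin carrier, had 0.40, 0.26 and 0.52, and with median centring 1.31, 0.675 and 1.51. Its 3-month value rests on spots of bright background.

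Of the list of canalicular export, 9 of 13 genes were measured, with medians of 0.004, 0.059 and -0.019 and none at least 1.5-fold apart. The shares of all genes past 1.5-fold on the 3 arrays were 0.195%, 0.605% and 2.09% higher and 2.42%, 1.49% and 5.39% lower. Beside Abcb11, Abcb4 and Abcc2, the membrane linker Ezr had -0.46 at 1 month and -0.43 on the SHR age array. Abcg5, of the sterol exporter, had -0.14, -0.25 and -0.24, and its partner Abcg8 had 0.15 on the SHR age array. With median centring Abcg5 turned to 0.38, 0.174 and 0.375, while Ezr stayed below 0. The multidrug exporter Abcb1b had 0.24 at 1 month, Abcb1a had 0.10 at 3 months, and the copper pump Atp7b stayed between -0.05 and -0.12. Of the list of sinusoidal export, 4 of 8 genes were measured with medians of 0.004, 0.054 and 0.019, and Abcc5 had 0.45 in SHR at 3 months.

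**Figure D5:**
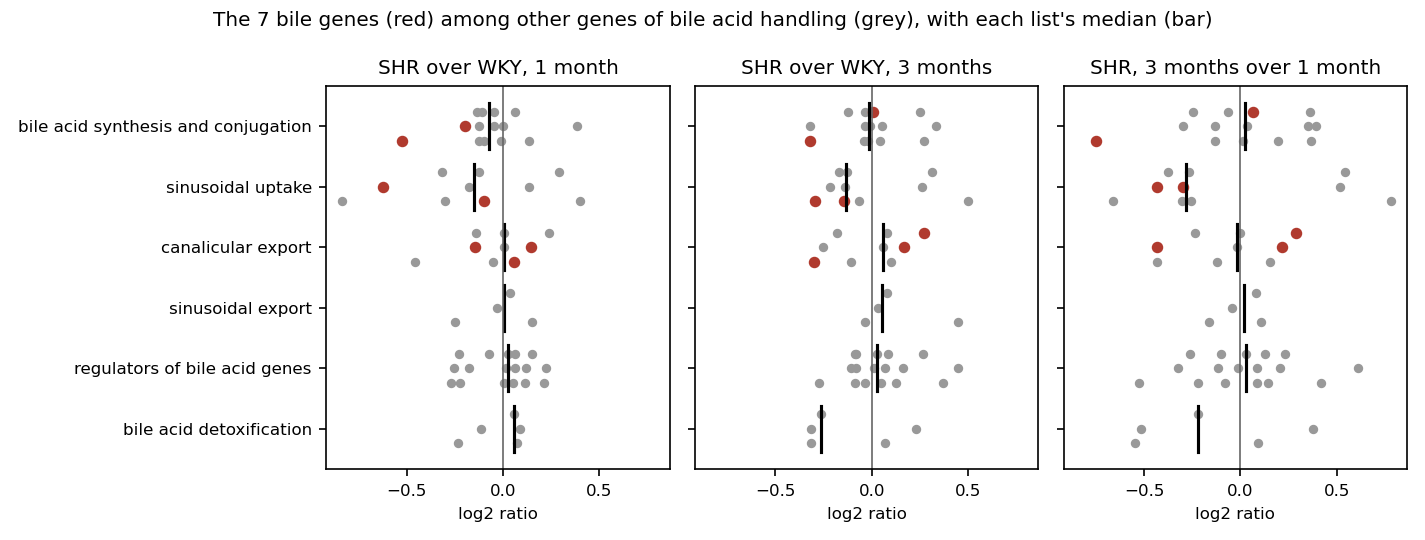
log2 ratio of each measured gene in 6 lists of bile acid handling on the 3 arrays, with the 7 bile genes in red, other genes in grey and each list's median as a black bar. The median of sinusoidal uptake is -0.149, -0.132 and -0.281, and that of the regulators 0.027, 0.027 and 0.030.

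Of the regulators, 17 of 21 were measured, with medians of 0.027, 0.027 and 0.030. Nr1h4, the bile acid receptor FXR, had -0.23 in SHR at 1 month and Nr0b2, the repressor SHP that it induces, had 0.37 in SHR at 3 months and -0.33 on the SHR age array. Spots of Nr0b2 fell among those of bright background at 3 months, so no value without them exists. Nr1h3, the oxysterol receptor LXR alpha, had 0.45 in SHR at 3 months and was the only regulator past 1.5-fold on the SHR age array (0.61, higher as the headers have it, where 2.09% of all genes were, and lower with the sign turned). Rxra, the shared partner of these receptors, had -0.27 at 1 month and -0.53 on the SHR age array. Cebpa had -0.25 at 1 month and -0.27 at 3 months, and Foxa2 had -0.23 at 1 month. Ppargc1a had 0.27 at 3 months, and the probe now named Fgf19 0.42 on the SHR age array. With median centring Nr1h4 turned to 0.436 at 1 month and Nr0b2 to 0.478 on the SHR age array. Cebpa turned to 0.491 at 1 month and 0.428 at 3 months, while Rxra and Foxa2 stayed below 0. Of the list of bile acid detoxification, 5 of 10 genes were measured, with medians of 0.055, -0.266 and -0.218. Gsta2 had -0.32 in SHR at 3 months and -0.55 on the SHR age array, and Sult2a1 -0.27 and -0.52, although a second probe of Sult2a1 had 0.003 and -0.097. Cyp3a9 had 0.23 and 0.38, and Cyp3a18 -0.31 and -0.22.

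Over the 6 lists together, 59 of 83 genes were measured, and the 52 without the 7 bile genes had medians of -0.003, 0.001 and -0.017. None of those 52 was at least 1.5-fold apart between the strains at 3 months, where 0.605% of all genes were higher and 1.49% lower. At 1 month 0 were higher (0.195% of all genes) and 1 was lower (2.42%). On the SHR age array 2 were higher (2.09%) and 1 was lower (5.39%), as the headers have it.

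As markers of the tissue, 15 of 15 hepatocyte genes were measured, with medians of 0.028, 0.017 and -0.090. Of the 15, 8, 8 and 6 were above 0 on the 3 arrays, as were 2686 of 5654, 2643 of 5621 and 2760 of 5656 genes. Albumin had -0.15, -1.01 and -1.10 and Serpina1 -0.71 at 1 month. Apoa1 had 0.24 at 1 month, and Tat had 0.38 at 3 months and 0.49 on the SHR age array. Hepatocyte genes thus did not move as 1 group. Of 12 bile duct genes 8 were measured, with medians of -0.088, 0.040 and -0.079. All 9 stellate cell and fibroblast genes were measured, and 8 of them were below 0 on each array, with medians of -0.281, -0.201 and -0.282. Among all genes 2968 of 5654, 2978 of 5621 and 2896 of 5656 were below 0. Desmin, a stellate cell filament, had -0.46, -0.41 and -0.60. Over lymphocyte genes the medians were -0.185, -0.086 and -0.167, over 3 erythroid genes -0.208, -0.159 and 0.074, and over 5 genes of gut and kidney 0.096, 0.095 and 0.007. Clec4f, the Kupffer cell marker measured, had -0.28, -0.46 and -0.29, and Kdr of endothelium 0.09, 0.13 and 0.07. The part of these cells in the values of the 7 bile genes was not tested.

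The genes whose 3 log2 ratios lay nearest to a bile gene were looked up among 4380 named genes. For Akr1d1 they were Rnf4, Aldoa and Gpam (distances 0.118, 0.122 and 0.126). Slco1b2 was nearest to Or6a2, Cox6c and Maob (0.0353, 0.0704 and 0.0721), and Abcb11 to Ak3, Bet1 and Arl3 (0.0226, 0.0275 and 0.0294). Likeness over 3 arrays that share RNA is a description of these values.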

How the data were processed

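Total RNA from liver, extracted with Trizol, was copied into cDNA with Alexa555 or Alexa647 (10 µg per channel), per the labels. The deposited scanner files hold, per the file headers, mean raw and local background intensity of each spot and both channels, and a ratio that the authors computed from their net intensities. A second deposited table holds the authors' log2 values, of unstated scale, centring and direction. Set against the negative log2 of the authors' ratio, they differed by a median of 0.00158, 0.00329 and 0.00351 on the 3 arrays, with 93.3%, 92.0% and 91.5% of spots within 0.1, and had medians of -0.00495, 0.005 and 0.0008. No source used here names the spot-finding software.

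Raw intensities were corrected with normexp (offset 50) in limma 3.58.1 (R 4.3.3) and normalized by global loess (span 0.3), with empty spots at weight 0. A spot was kept if either channel exceeded its local background by 2 SD, and both spots of a probe were averaged. The brightest probe stood for each of 37 genes with several. RefSeq gave a symbol through the accession of 2728 probes, through the file's symbol for 1052 and through a synonym for 521, while 156 kept the file's symbol and 1240 had none. Fitting and averaging were tested on simulated data. Tables used pandas 2.3.3 and numpy 2.4.6 under Python 3.11.15, and plots matplotlib 3.10.9. The number of arrays limits the precision, and no test was run. All 7 genes were named, with up to 4 other genes of each list and array by size of ratio and the 3 nearest genes of Akr1d1, Slco1b2 and Abcb11. A gene that this rule takes is not reported here. Genes, lists and rules were chosen with earlier results of these data known. Counts among genes of like intensity were added after seeing the data. A list was described by counts and its median. Alternatives covered background correction, normalization, filter, spots, probes and the authors' own values.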

Additional observations from a re-analysis of the deposited data

How the results depend on the processing

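No paired analysis was possible because each comparison had 1 array. Signs of Akr1d1, Slco1b2, Slco1a1, Abcb11 and Abcc2 held on each array in 14 of 14 alternatives, apart from turning the sign of the SHR age array. Abcb4 kept its sign in 13 of 14 on each array. Baat kept it in 14 at 1 month, 10 at 3 months and 13 on the SHR age array. Akr1d1 passed 1.5-fold lower in 3 of 14 alternatives at 1 month, 5 at 3 months and 14 on the SHR age array, and Slco1b2 in 11, 2 and 1. Some alternatives could not differ from the reported value. Each of the 7 genes had 1 probe with both spots present in both channels. Both changes of filter and the mean over probes therefore returned the reported value. The fit without bright background did so on the SHR age array. All these counts include such repeats. The median of the 7 genes at 1 month was -0.49 with median centring and -0.203 with a loess span of 0.5. At 3 months it was -0.277 with no background correction, -0.254 with plain subtraction, -0.252 without bright background, -0.0219 with median centring, -0.0895 with loess within subgrids and -0.205 with a span of 0.5. On the SHR age array it was -0.194 within subgrids, -0.171 in the authors' deposited log2 table and -0.17 from the authors' ratio. With the sign of that array turned it was 0.296, and Akr1d1 had 0.751. The median change with age was 0.025 with no background correction, 0.0446 with plain subtraction, 0.0569 without bright background, 0.374 with median centring, 0.0209 from the authors' ratio and -0.00425 in the authors' log2 table. Median centring keeps the trend of ratio with intensity. The other causes were not tested.

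Counts of all genes at least 1.5-fold higher and lower moved with the setting. At 1 month they were 11 and 137 as reported, 42 and 168 with offset 0, 46 and 162 with plain subtraction, 595 and 418 with median centring, 20 and 107 within subgrids, 17 and 171 with span 0.5, 105 and 165 in the authors' deposited log2 table and 81 and 120 from their ratio. At 3 months they were 34 and 84 as reported, 50 and 249 with no background correction, 104 and 292 with plain subtraction, 44 and 198 without bright background, 434 and 132 with median centring, 156 and 229 in the authors' table and 122 and 213 from their ratio. On the SHR age array they were 118 and 305 as reported, 205 and 389 with offset 0, 211 and 392 with plain subtraction, 878 and 567 with median centring, and 224 and 381 and 218 and 323 in the authors' table and ratio. For the change with age they were 96 and 63 as reported and 20 and 86 without bright background.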

Other observations

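In the rat genome Slco1b2 and Slco1a1 lie in a run of related carriers, in the order Slco1c1, Slco1b2, Slco1a4, Slco1a1, Slco1a3, Slco1a6 and Slco1a5 in the RefSeq table, and all 7 were on the array. Their log2 ratios of SHR over WKY at 1 month were -0.215 for Slco1c1, -0.622 for Slco1b2, -0.301 for Slco1a4, -0.101 for Slco1a1, 0.0772 for Slco1a3, -0.0454 for Slco1a6 and 0.133 for Slco1a5. At 3 months, without the spots of bright background, they were -0.0172, -0.565, -0.382, -0.252, 0.137, 0.0364 and 0.492 in the same order. With all spots in the background model the 3-month values were -0.0234, -0.294, -0.137, -0.144, 0.0988, 0.0191 and 0.312. Slco1b2 was the lowest of the run at both ages in these values. Slco1a4 had 0.0761 at 3 months with median centring. These carriers are related in sequence, and whether their probes tell them apart was not tested. Slco1c1, Slco1a3 and Slco1a6 were chosen for their place beside the named genes.

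Abcb4 lies beside Abcb1b and Abcb1a on one side and Crot, a peroxisomal carnitine acyltransferase, on the other. Comparing SHR with WKY, Crot stood at 0.216 at 1 month and 0.223 at 3 months, where Abcb4 had -0.144 and -0.30 (log2). Abcb1b had 0.237 and 0.0816, and Abcb1a 0.00418 and 0.101. Abcb4 was the only gene of these 4 below 0 at both ages. With median centring it turned to 0.266 and 0.115, while Abcb1a had -0.202 and -0.0382 and Abcb1b -0.0478 and 0.0356.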
